A study of Mus musculus with 6 samples.

Results

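Bulk RNA-seq of mouse primary somatosensory (S1) cortex was examined for 10 core circadian clock genes: Per1, Per2, Per3, Cry1, Cry2, Arntl (also called Bmal1), Clock, Nr1d1, Nr1d2 and Dbp. They were chosen by gene symbol, and all 10 were among the 14824 genes listed and among the 13747 that passed the filter on low counts. The samples were whole S1 cortex of wild-type C57B6 mice at postnatal day 21, with 3 libraries after daily whisker stimulation (WS) and 3 without stimulation (NS). Per the study's methods the mice were male, were kept on a light–dark cycle, and gave tissue 90 min after the last stimulation. The clock time of collection is not given in the sources used here. The column of WS library 3 carries an added letter in the file's header and was taken as WS because the authors' mean over WS includes it. The labels number the libraries 1 to 3 in each group and do not say which libraries share an animal. The study's heatmap captions for these data give 3 WS and 3 NS samples and 3 mice. Its stimulation design took the unstimulated side of the brain as NS, named as the ipsilateral side for the staining. Both groups may therefore come from the same mice. Unless pairing is named, the tests below are unpaired, and p-values measure the spread between these libraries. The libraries held 15660395 to 17276168 counts over the listed genes. The clock genes had between 297 counts (Cry1 in WS library 2) and 3022 counts (Nr1d1 in WS library 1) in a library. Levels are given below as CPM, a gene's count scaled to a common library total, after TMM normalization, which corrects for differences in library composition. In bulk tissue, fewer cells of a type and less RNA per cell cannot be told apart.

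The circadian clock is a transcriptional feedback loop that runs in nearly every cell, the cortex included. CLOCK and ARNTL (BMAL1) form a dimer that binds E-box sequences and activates the Per and Cry genes, whose proteins in turn repress the dimer. A connected loop runs through the nuclear receptors NR1D1 and NR1D2 (REV-ERBα and β), which are made under E-box control and repress Arntl through ROR elements (ROREs), and Dbp is an E-box-driven output gene whose protein binds D-boxes. Arntl and the E-box-driven genes therefore normally peak at opposite times of day, and Per1 can also be induced by neuronal activity through cAMP response elements (CREs).

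RefSeq start-site windows (250 bases before to 50 after the start, GRCm38.p6) were found for 9 of the 10 genes. Some are shown for Per1, Per3, Cry1 and Arntl, which kept their order of libraries in both groups, as described below. Cry2 and Nr1d2 also kept theirs and are not printed. A link between motifs and this order was not tested. Each window was searched on both strands for the E-box CACGTG, the E′-box CACGTT, which reads AACGTG from the opposite strand, the D-box TTATGTAA, the RORE TAGGTCA and the CRE TGACGTCA, motifs that do not overlap each other in the hits found. Of the 9 clock genes 6 had at least 1 of these 5 motifs, in 6 of their 13 windows, and 16.1% of 32851 windows of all genes did. The share of all windows with each motif was 7.15% for the E-box, 4.68% for the E′-box, 0.938% for the D-box, 2.61% for the RORE and 1.79% for the CRE. The 250 bases before a start site follow for Per1 (chr11:69098699-69098948, plus strand), Per3 (chr4:151044666-151044915, minus strand) and Cry1 (chr10:85185055-85185304, minus strand), with 27 bases around the Arntl RORE (chr7:113207531-113207557, plus strand), each 5′ to 3′ on the gene's strand with the motifs in capitals.
Per1: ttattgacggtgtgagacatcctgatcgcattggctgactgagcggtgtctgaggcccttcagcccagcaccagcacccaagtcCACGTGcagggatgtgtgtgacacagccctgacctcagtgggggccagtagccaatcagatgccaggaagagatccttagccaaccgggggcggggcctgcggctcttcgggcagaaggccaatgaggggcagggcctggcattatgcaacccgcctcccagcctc
Per3: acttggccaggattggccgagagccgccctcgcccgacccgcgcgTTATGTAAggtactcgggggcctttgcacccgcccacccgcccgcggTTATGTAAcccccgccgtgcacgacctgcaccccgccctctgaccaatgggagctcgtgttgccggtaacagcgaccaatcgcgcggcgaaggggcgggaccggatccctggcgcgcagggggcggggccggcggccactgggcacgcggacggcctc
Cry1: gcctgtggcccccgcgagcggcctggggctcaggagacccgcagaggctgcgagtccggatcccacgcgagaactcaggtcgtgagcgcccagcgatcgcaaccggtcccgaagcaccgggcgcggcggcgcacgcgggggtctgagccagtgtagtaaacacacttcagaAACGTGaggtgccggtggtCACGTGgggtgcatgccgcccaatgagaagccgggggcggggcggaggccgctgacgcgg
Arntl: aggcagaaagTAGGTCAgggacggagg
The capitals mark an E-box 166 bases before 1 of 2 Per1 starts, D-boxes 205 and 158 bases before the Per3 start, and an E′-box and an E-box 79 and 60 bases before the Cry1 start. The window of the other Per1 start held none of these motifs. In Arntl the capitals mark the RORE that begins at base 31 after a start site. Cry2 held an E′-box 166 bases and Nr1d1 an E′-box 28 bases before its start, and the windows of Clock, Nr1d2 and Dbp held none of these letters. A match describes the letters in the window and is not evidence of binding.

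No difference between WS and NS passed the test for any of the 10 clock genes. With edgeR's quasi-likelihood test and Benjamini-Hochberg adjustment over 13747 genes, 0 of 10 passed an adjusted p of 0.05 with an absolute log2 fold change above 1, against 0.0291% of all genes tested (4 genes). With no limit on the fold change the count stayed at 0 of 10, against 0.0364% of all genes. At an unadjusted p under 0.05 it was also 0 of 10, where 1.19% of all genes passed (0.866% higher and 0.327% lower in WS), and DESeq2 called 0 as well. The log2 fold changes (WS minus NS) ran from -0.19 for Arntl to 0.14 for Dbp, 6 positive and 4 negative, where 53.0% of all genes were positive. Their median was 0.018, and the median of their sizes was 0.073, beside 0.0074 and 0.069 over all genes. The 95% intervals, not adjusted for the number of genes, reached from 0.738-fold (the lower bound of Arntl) to 1.27-fold (the upper bound of Per1), so a doubling or halving lay outside the interval of every one of the 10. Each had an adjusted p of 0.9998 in the same test.

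**Figure D1:**
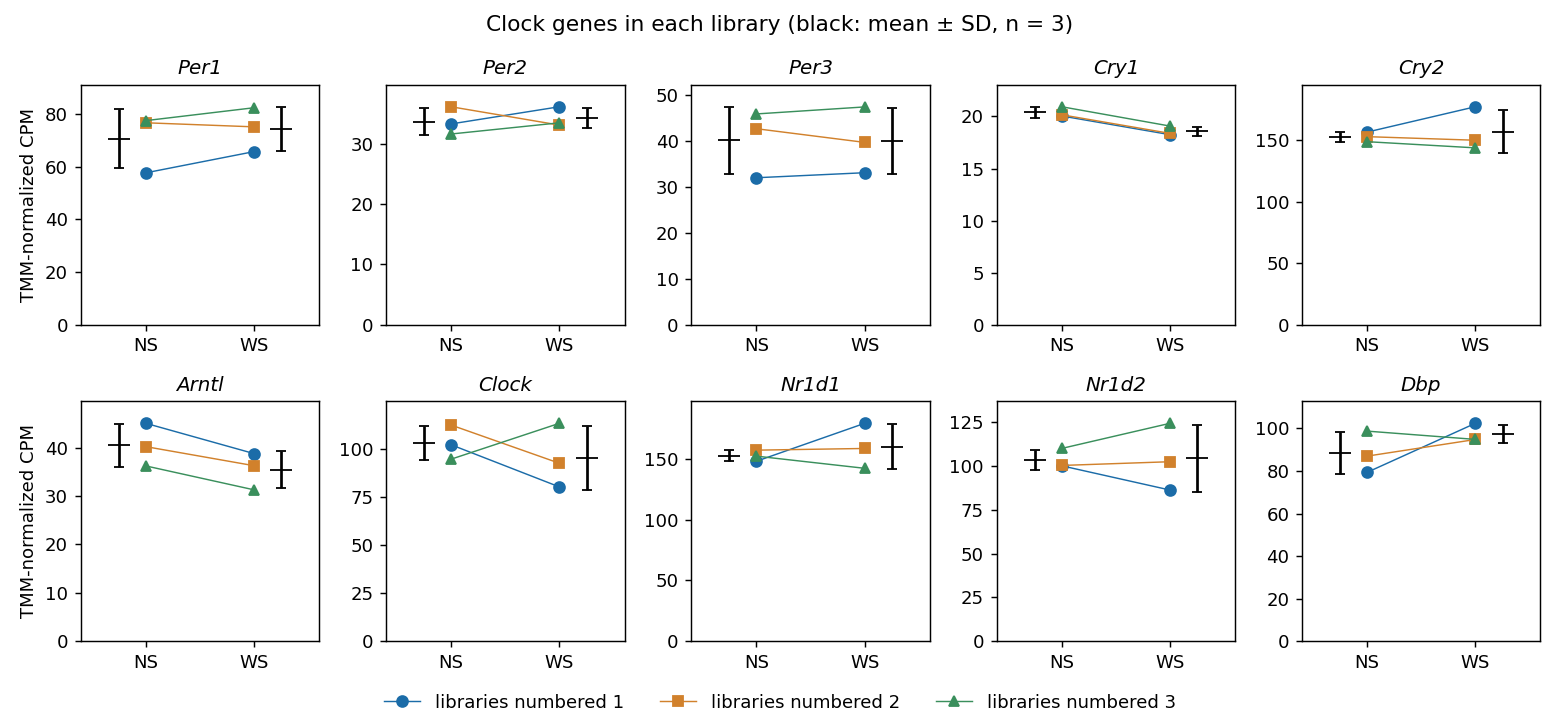
TMM-normalized CPM of the 10 clock genes in the 3 NS and 3 WS libraries, 1 panel per gene, with lines joining libraries of the same number and black bars for the mean ± SD (n = 3). The 3 WS values lie below the 3 NS values for Cry1 (18.2 to 19.1 against 20.05 to 20.9 CPM), the groups overlap for the other genes, and the lines of Per3 and Arntl keep the same order in both groups.

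The Period genes encode the PER proteins, which carry the repression of CLOCK and ARNTL. Per1 (chromosome 11, 69095217 to 69109960 in GRCm38) was at 57.7, 76.7 and 77.5 CPM in NS libraries 1, 2 and 3, and at 65.8, 75.2 and 82.4 CPM in the WS libraries of the same numbers. The libraries numbered 1 were the lowest of each group and the groups overlapped. The means were 70.6 ± 11.2 CPM in NS and 74.4 ± 8.35 CPM in WS (SD, n = 3 each), which gave a log2 fold change of 0.08 (95% interval -0.19 to 0.34) and a two-sided exact permutation p of 0.70, where 3 against 3 libraries cannot go below 0.10.

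Per2 (chromosome 1, 91415982 to 91459324) is the Period gene most tied to sustained rhythm. It was at 33.3, 36.1 and 31.6 CPM in the NS libraries and 36.1, 33.1 and 33.5 CPM in the WS libraries, so its groups overlapped and no number was high or low in both. Its log2 fold change was 0.02 (95% interval -0.18 to 0.23; exact permutation p = 0.70). Per3 (chromosome 4, 151003652 to 151044665), a Period gene whose loss leaves the rhythm largely intact, was at 32.0, 42.6 and 45.8 CPM in NS and 33.1, 39.6 and 47.4 CPM in WS. The group means were thus nearly the same (40.1 ± 7.26 and 40.0 ± 7.16 CPM; SD, n = 3), with a log2 fold change of -0.0051 (95% interval -0.34 to 0.33), while the libraries of 1 group spanned more than the difference between the groups. On the log2 scale the SD of Per3 within groups was 0.27, a spread exceeded by 4.59% of the genes that averaged 100 counts or more. For Per1 this SD was 0.21 (exceeded by 12.3%), and for Per2 it was 0.084 (exceeded by 76.2%).

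The cryptochromes bind the PER proteins and are the stronger repressors of the dimer. Cry1 (chromosome 10, 85131700 to 85185064) was at 20.05, 20.2 and 20.9 CPM in NS and 18.2, 18.4 and 19.1 CPM in WS. It was the only 1 of the 10 genes whose groups did not overlap, with all WS values below all NS values, as had 3.16% of all genes, and 6.27% did not overlap in either direction. The means of 20.4 ± 0.482 and 18.6 ± 0.446 CPM (SD, n = 3) gave a log2 fold change of -0.13 (95% interval -0.34 to 0.07), an unadjusted p of 0.17 in edgeR's quasi-likelihood test and an exact permutation p of 0.10, the smallest that 3 against 3 allows. Its SD within groups was 0.034 on the log2 scale, and 98.6% of genes with at least 100 counts had a larger one. Cry2 (chromosome 2, 92403646 to 92434043) was at 156, 153 and 149 CPM in NS and 177, 150 and 144 CPM in WS. The WS libraries held both its highest and its lowest value, and its log2 fold change was 0.04 (95% interval -0.15 to 0.23; exact permutation p = 0.90).

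Of the activators, Arntl (chromosome 7, 113207465 to 113314126) was at 45.0, 40.2 and 36.2 CPM in NS and 38.7, 36.2 and 31.3 CPM in WS. It was highest in number 1 and lowest in number 3 of both groups, opposite to Per1 and Per3, and lower in WS in each of the 3 same-numbered pairs, as were 8.57% of all genes. The within-pair log2 differences were -0.22, -0.15 and -0.21. Over all libraries the means were 40.5 ± 4.41 CPM in NS and 35.4 ± 3.81 CPM in WS (SD, n = 3), and the log2 fold change of -0.19 (standard error 0.11; 95% interval -0.44 to 0.05) had an unadjusted p of 0.11 in edgeR's quasi-likelihood test, with overlapping groups. Cry1 was the other member lower in 3 of 3 pairs, with within-pair differences of -0.13 in each, and no member was higher in 3 of 3, where 9.82% of all genes were.

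Clock (chromosome 5, 76209868 to 76304792), which encodes the partner of ARNTL and varies little over the day in most tissues, was at 102, 113 and 94.8 CPM in NS and 80.4, 92.7 and 114 CPM in WS. Its lowest and highest values were both WS libraries, and the WS order of numbers was not that of NS. The log2 fold change was -0.11 (95% interval -0.37 to 0.14; exact permutation p = 0.50).

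The nuclear receptors that repress Arntl also overlapped between groups. Nr1d1 (chromosome 11, 98767932 to 98775333) was at 148, 157 and 152 CPM in NS and 179, 158 and 142 CPM in WS, with a log2 fold change of 0.07 (95% interval -0.12 to 0.26; exact permutation p = 0.60). Its exons share 263 of 2721 bases with Thra on the opposite strand, and whether counting used strand is not given in the sources used here. Nr1d2 (chromosome 14, 18204054 to 18239127) was at 100.1, 100.3 and 110.0 CPM in NS and 86.3, 102 and 124 CPM in WS. Its means of 103 ± 5.66 and 104 ± 19.1 CPM (SD, n = 3) differed by a log2 fold change of 0.01 (95% interval -0.24 to 0.27; exact permutation p = 0.80), with a larger spread in WS.

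Dbp (chromosome 7, 45705088 to 45710203), the D-box-binding output gene, was at 79.3, 86.9 and 98.7 CPM in NS and 102, 94.8 and 94.8 CPM in WS. The highest NS library lay above 2 of the WS libraries. Its means were 88.3 ± 9.77 CPM in NS and 97.3 ± 4.38 CPM in WS (SD, n = 3), and its log2 fold change of 0.14 (standard error 0.091; 95% interval -0.06 to 0.34), the highest of the 10, had an unadjusted p of 0.15 in edgeR's quasi-likelihood test and an exact permutation p of 0.30. Its exons share 539 of 1837 bases with Sphk2 on the opposite strand.

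Per kilobase of exon, Nr1d1 and Dbp were the most abundant. Nr1d1 was at 57.3 ± 4.69 and Dbp at 50.5 ± 4.56 CPM per kb (SD over all 6 libraries), with overlapping ranges. Cry2 followed at 35.6 ± 2.70 and Nr1d2 at 22.3 ± 2.71 CPM per kb, each apart from its neighbours. Per1 (12.9 ± 1.62), Arntl (12.3 ± 1.49) and Clock (10.02 ± 1.28 CPM per kb) overlapped from 1 to the next. Per3 (6.68 ± 1.08), Cry1 (6.43 ± 0.356) and Per2 (5.82 ± 0.311 CPM per kb) were the lowest and overlapped likewise.

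The rest of the pathway was read from a list of 21 further clock genes, of which 20 were listed and tested and Hlf was not analysed here. None of the 20 was called, and 10 had positive and 10 negative log2 fold changes, with a median of -0.00035. At an unadjusted p under 0.05, 1 of 20 was lower: Fbxl21, an F-box gene whose protein acts on cryptochrome stability. Fbxl21 was at 3.91, 2.87 and 2.61 CPM in NS and 1.66, 2.10 and 2.46 CPM in WS, so its groups did not overlap, but its log2 fold change of -0.59 (standard error 0.24; unadjusted p = 0.032) had an adjusted p of 0.9998 in edgeR's quasi-likelihood test. Across all genes 0.327% (45 genes) were lower at that threshold, and 197 genes were with the GC and length trend described below removed. Rorb, a nuclear receptor that acts on ROREs, was the 1 listed gene with all WS values above all NS values (50.6 to 54.4 against 43.6 to 49.4 CPM; log2 fold change 0.13), and 3.11% of all genes did so. Btrc, an F-box gene for PER degradation, lay below in WS like Fbxl21, with a log2 fold change of -0.07. The kinases Csnk1d and Csnk1e, which phosphorylate PER, had log2 fold changes of 0.02 and 0.09, and Ciart, an E-box-driven repressor, had -0.06.

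**Figure D2:**
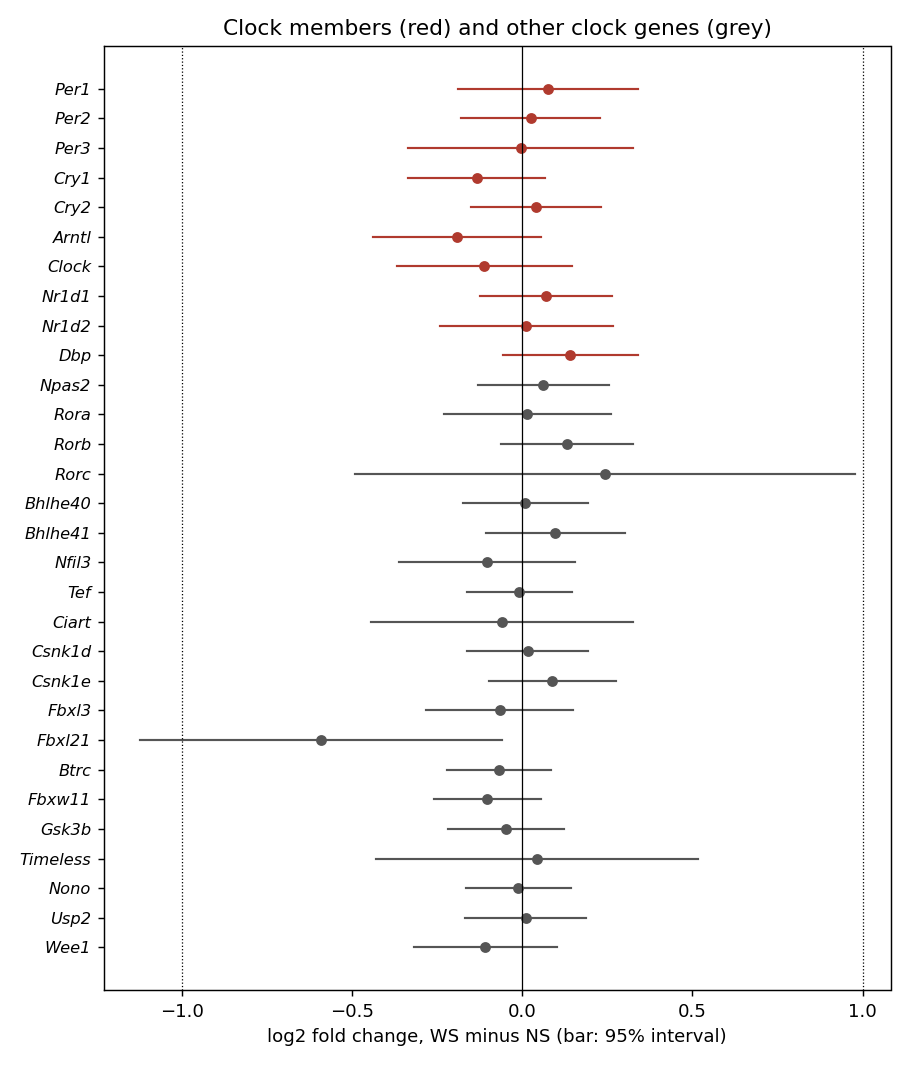
Log2 fold change (WS minus NS) of the 10 clock genes (red) and the 20 other clock genes (grey) on the horizontal axis, 1 gene per row, with bars for the 95% interval and dotted lines at -1 and 1. The intervals of all 10 clock genes cross 0, and among the other genes only that of Fbxl21, with a log2 fold change of -0.59, does not.

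Libraries with the same number were then set side by side, to see whether they shared a shift in clock phase. Of the 10 clock genes, 6 ranked the numbers in the same order in NS and WS, and 17.0% of all genes did. The same number was highest in both groups for 6 of 10 (32.0% of all genes) and lowest in both for 6 of 10 (34.7% of all genes). Per1, Per3, Cry1 and Nr1d2 were lowest in number 1 and highest in number 3 of both groups, an order that 4.33% of all genes had. Arntl and Cry2 had the opposite order in both groups, as did 4.48% of all genes. Numbers 1 and 2 lay close together for Cry1 (20.05 and 20.2 CPM in NS, 18.2 and 18.4 CPM in WS). The same held for Nr1d2 in NS (100.1 and 100.3 CPM), so the order of these genes rests on small gaps. Of the 20 other clock genes 3 kept an order (Rorb, Csnk1d and Btrc).

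Per3 showed the size of these differences most clearly. Its log2 deviations from the group mean were -0.31, 0.10 and 0.21 in NS and -0.26, 0.0018 and 0.26 in WS for numbers 1, 2 and 3. Those of Arntl were 0.16, -0.0043 and -0.15 in NS and 0.13, 0.04 and -0.17 in WS. The ratio of Per3 to Arntl CPM accordingly was 0.710, 1.06 and 1.27 in NS and 0.853, 1.09 and 1.52 in WS, and in each number the ratio was higher in WS. For Per1 to Arntl the ratios were 1.28, 1.91 and 2.14 in NS and 1.70, 2.07 and 2.64 in WS. The ratio of Dbp to Arntl was 1.76, 2.16 and 2.73 in NS and 2.64, 2.61 and 3.03 in WS, so number 3 was the highest of both groups here too. Ratios to Arntl share its values, so they are no separate measurements.

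The libraries also differed in how counts depended on GC content. Over 10857 genes the log2 level changed by 0.20 per 10 percentage points of GC in WS library 1 and by -0.12 in WS library 3, but by -0.05 to 0.0033 in the other 4. Genes of the clock differ widely in GC, from 40.9% in Clock and 41.8% in Nr1d2 to 59.4% in Per1 and 61.6% in Dbp. After a trend on GC content and transcript length was removed from each library, the deviations of Clock in WS libraries 1, 2 and 3 were 0.00092, -0.03 and 0.03, in place of -0.23, -0.03 and 0.26. Those of Nr1d2 were -0.09, -0.03 and 0.12 in place of -0.26, -0.01 and 0.27. Per3 kept -0.26, 0.03 and 0.23 and Arntl 0.18, 0.01 and -0.20 in WS, both in the order of NS. Dbp took up the order it had in NS (-0.12, -0.0014 and 0.12), with -0.08, -0.03 and 0.12 in WS. By this scale 4 of 10 genes (Per1, Per3, Arntl and Dbp) and 22.8% of all genes kept 1 order in both groups. Cry1, Cry2 and Nr1d2 no longer did.

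Across the 10 genes, the deviations in same-numbered NS and WS libraries had a Pearson r of 0.56, 0.07 and 0.43 for numbers 1, 2 and 3, and of 0.96, 0.63 and 0.94 with the trend removed. Over all 13747 genes r was 0.34, 0.23 and 0.12, and 0.42, 0.27 and 0.24 with the trend removed. For the 10 members and 20 other clock genes together it was 0.16, -0.43 and 0.25, and 0.44, -0.34 and 0.49 with the trend removed, so number 2 had a negative r in this wider list on both scales. Between libraries of different numbers r across the 10 genes was -0.56 to 0.36, above that of number 2 at its highest, and -0.94 to 0.36 with the trend removed. Over the 30 genes NS library 2 and WS library 1 had an r of 0.37 before the trend was removed, above that of every same-numbered pair on that scale. These are descriptions across 10 genes of one loop, which are not independent, and the deviations of a group sum to 0, so the 3 values are linked.

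**Figure D3:**
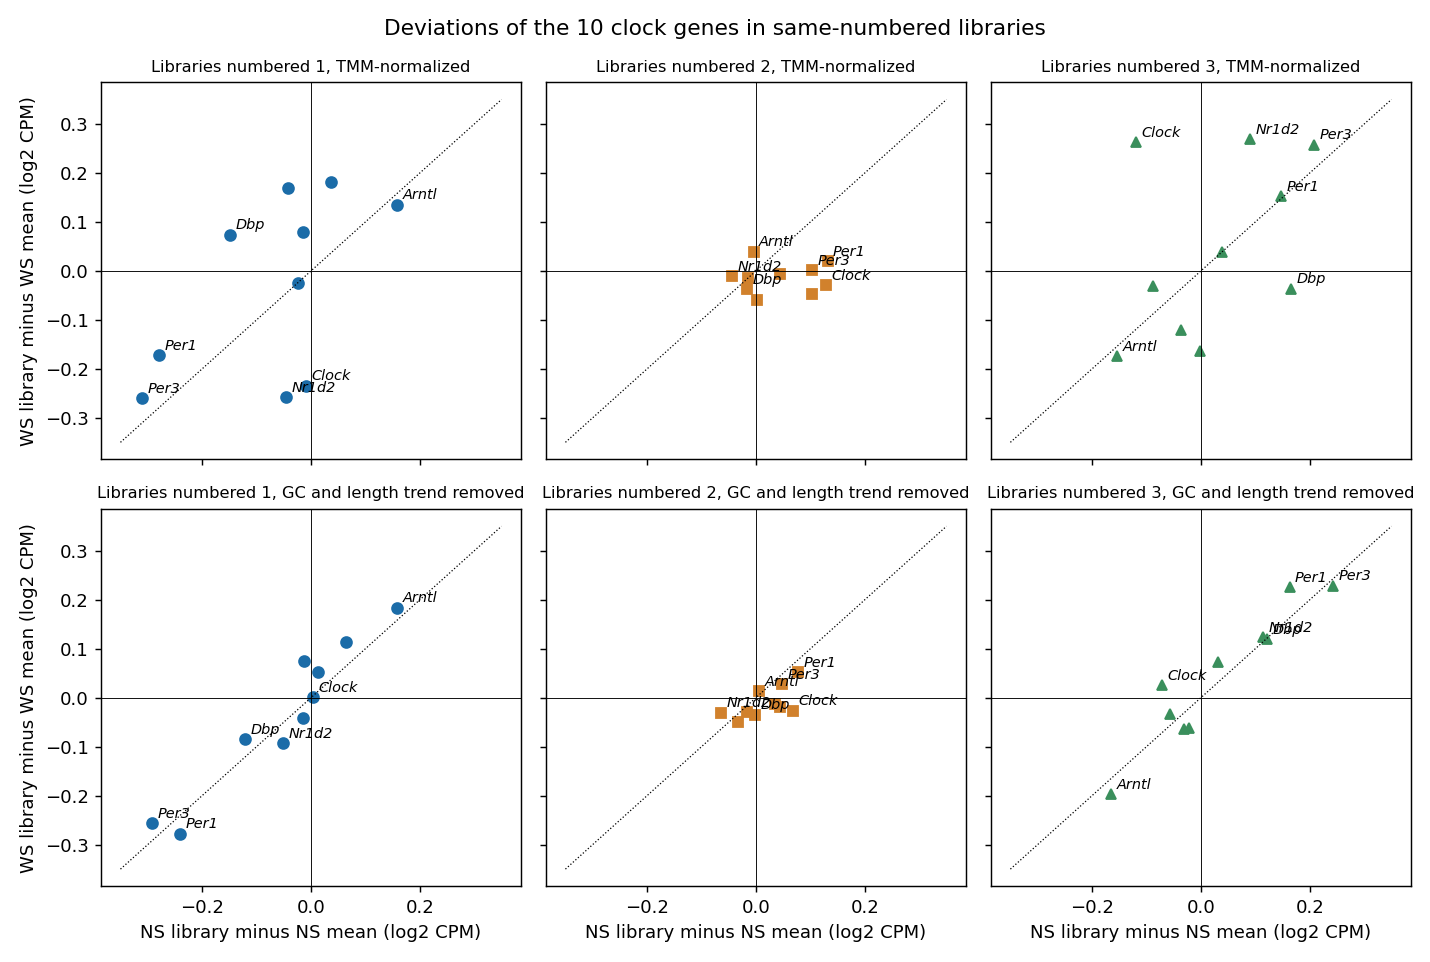
Deviation of each of the 10 clock genes from its group mean (log2 CPM) in the NS library (horizontal axis) against the WS library of the same number (vertical axis), for numbers 1 to 3 from left to right, TMM-normalized above and with the GC and length trend removed below, where the dotted line marks equal deviations. With the trend removed Per1 and Per3 lie at the lower left and Arntl at the upper right in number 1 (r = 0.96), and the sides are exchanged in number 3 (r = 0.94).

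The loop's opposite arms were also summarized. For each library the mean log2 level was taken over 9 E-box-driven genes (Per1, Per2, Per3, Nr1d1, Nr1d2, Dbp, Ciart, Tef and Bhlhe41), each centred on its mean over all libraries. The mean of 4 genes taken as the opposite arm (Arntl, Clock, Npas2 and Nfil3), centred likewise, was subtracted from it. The difference was -0.23, -0.07 and 0.10 in NS and 0.06, -0.0065 and 0.14 in WS. Number 3 was the highest of each group, while numbers 1 and 2 changed places between the groups. With the GC and length trend removed they did not, at -0.21, -0.07 and 0.12 in NS and -0.026, -0.0030 and 0.19 in WS. The difference was higher in WS in 3 of 3 same-numbered pairs on both scales, but the values of the groups overlapped, with means of -0.06 ± 0.17 in NS and 0.06 ± 0.075 in WS (SD, n = 3), and no test was made. The arms are lists and not measured phases. Over the 6 libraries Clock (r = -0.16) and Nfil3 (r = 0.0045) did not run with Arntl, and Npas2 did weakly (r = 0.28). Of the E-box-driven genes Per2 (r = 0.27), Nr1d1 (r = 0.26) and Tef (r = 0.11) had a positive r with Arntl, and the others a negative one.

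Some activity-response genes had the same order of library numbers. Of 13 activity-response genes, which neurons induce upon firing, 7 (Junb, Egr1, Egr2, Nr4a1, Dusp1, Btg2 and Sik1) had the order of Per1 and Per3, lowest in number 1 and highest in number 3 of both groups, against 4.33% of all genes. Nr4a1, an orphan nuclear receptor gene among them, was at 54.3, 116 and 214 CPM in NS and 65.9, 108 and 194 CPM in WS. The summed level of the 13 genes was 741, 1008 and 1339 CPM in NS and 959, 1143 and 1661 CPM in WS. Not all 13 shared the order, since Fos (18.4, 15.04 and 14.8 CPM) and Egr4 (56.0, 37.8 and 31.2 CPM) were highest in number 1 of NS. Fos, Arc and Egr4 had all WS values above all NS values (3 of 13, against 3.11% of all genes), with log2 fold changes of 1.03, 1.13 and 1.17 and adjusted p of 0.416, 0.9998 and 0.101 in edgeR's quasi-likelihood test, and Arc (204, 229 and 490 CPM) was part of the WS sums. Of 10 glucocorticoid-responsive genes and receptors 1 (Sgk1) had that order and 2 kept any order in both groups (17.0% of all genes), and their summed level was 476 to 495 CPM in NS and 452 to 534 CPM in WS. Summed oligodendrocyte markers (4 of 4 tested) were also lowest in number 1 of both groups, at 6319, 9269 and 8669 CPM in NS and 7470, 10089 and 10199 CPM in WS, but 0 of the 4 had the order of Per1 and Per3. The part of neuronal activity, cell composition and RNA quality in the order of the clock genes was not tested.

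**Figure D4:**
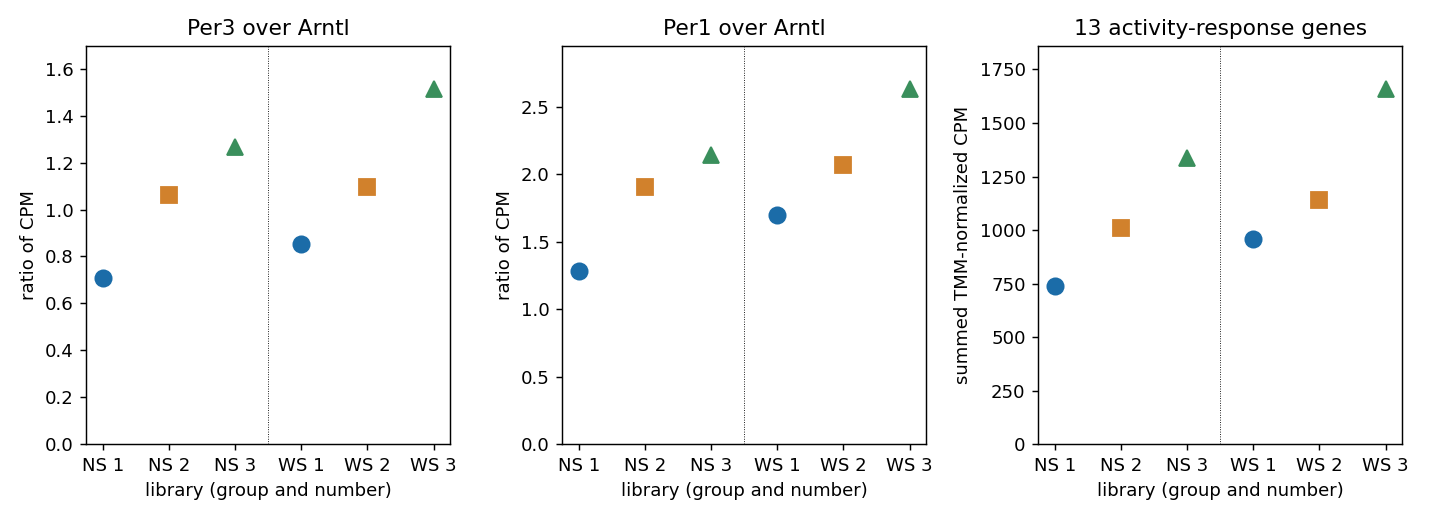
Ratio of Per3 to Arntl CPM (left), ratio of Per1 to Arntl CPM (middle) and summed CPM of 13 activity-response genes (right) in each of the 6 libraries, marked by number. All 3 measures are lowest in number 1 and highest in number 3 of each group, with Per3 to Arntl at 0.710 and 1.27 in NS and 0.853 and 1.52 in WS. The order of both ratios follows from the orders of Per1, Per3 and Arntl, for which these genes were picked. The ratios are therefore no separate measurements.

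Markers of the labelled tissue were present in every library. The 6 neuronal markers summed to 5591 to 6040 CPM, the 6 astrocyte markers to 3357 to 4599 CPM, and the 4 microglial markers to 221 to 238 CPM. Those of the 4 endothelial markers were 103 to 108 CPM in NS and 122 to 146 CPM in WS, without overlap. Singly only 1 of the 4 (Pecam1, log2 fold change 0.87) had all WS values above all NS values, as had 3.11% of all genes. Striatal markers (6 of 6 tested) summed to 222, 292 and 308 CPM in NS and 246, 462 and 201 CPM in WS for numbers 1, 2 and 3. Choroid plexus markers (3 of 4 listed) summed to 24.4, 34.4 and 57.6 CPM in NS and 6.93, 62.2 and 33.8 CPM in WS. Both sums had the order of Per1 and Per3 in NS but not in WS, and that of choroid plexus was lowest in number 1 of both groups. Of 6 markers of suprachiasmatic and hypothalamic neurons 3 were listed, of which 2 (Vip and Rgs16) were tested, with a sum of 47.3 to 64.2 CPM.

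Over the 6 libraries, the genes whose levels ran most like Dbp among 10875 with at least 100 counts were Carns1 (Pearson r = 0.99), Slc7a5, Fancg, Ppp1r12c and Dpm3 (r = 0.98 for the last). None of the clock genes was among these 5, the nearest being Bhlhe40 (r = 0.80), Usp2 (r = 0.72) and Ciart (r = 0.62). Most like Arntl were Nell2 (r = 0.99), Sh3bp5, Nicn1, Amph and Nov (r = 0.97 for the last), while Per1 ran opposite to it (r = -0.84), as did Per3 (r = -0.77), Nr1d2 (r = -0.67), Dbp (r = -0.65) and, weakly, Clock (r = -0.16). The other 4 members had a positive r with Arntl, at 0.49 for Cry2, 0.27 for Per2 and 0.26 for Cry1 and for Nr1d1. Each r rests on 6 libraries and is given as description.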

How the data were processed

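Per the study's methods, the authors sequenced RNA of S1 cortex on a DNBseq instrument, discarded reads from rRNA or of low quality, and used HISAT2 for alignment. The submitters' processing notes name the build mm10. The counting tool and its strand setting are not given in the sources used here. The deposited table holds, per gene, the mean and SD of the 6 libraries' expected counts and a standardized score (z) per library, which the authors computed as count minus mean, divided by the SD. Counts were computed back as mean + z × SD, and were rounded: where rounding of the table allowed a precision of 0.1 count (13418 genes), 91.0% of values lay within 0.1 of a whole number. The sum over libraries was not whole for Nr1d1 and Dbp. Columns of the authors' own comparisons (fold changes and p-values) and a second table holding a subset by p were not used.

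edgeR 4.0.16 (R 4.3.3; TMM, filterByExpr, quasi-likelihood F test, Benjamini-Hochberg) compared 3 WS with 3 NS libraries over 13747 genes. Calls required adjusted p below 0.05 together with |log2 fold change| > 1. The biological coefficient of variation was 10.1%. Alternatives were DESeq2 1.42.0, its size factors in edgeR, no filter, unrounded counts, a replicate block and leaving out each library. Removal of a per-library spline trend on GC content and length, with and without the block, was added after seeing the data. The test was checked on simulated counts. Over all genes, deviations of same-numbered NS and WS libraries had r of 0.34, 0.23 and 0.12 (0.07 for number 3 over genes with at least 100 counts). Libraries of different numbers had r of -0.26 to 0.04 over all genes. Over genes with at least 100 counts NS library 2 and WS library 3 had 0.10, above number 3. The label numbers were taken to pair libraries on this ground alone, which comes from the same data and does not establish shared animals. The text names the 10 members, genes of the other clock list, list genes needed beside a result, and the 5 genes most like Dbp and Arntl by r. Members and lists were chosen with earlier results of these data known. Positions and exon overlaps are from GENCODE M21 and start-site windows from RefSeq, both on GRCm38.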

Additional observations from a re-analysis of the deposited data

How the results depend on the processing

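No clock gene was called under any alternative, with DESeq2 included, and the lowest adjusted p of the 10 members was 0.884 (with 1 library left out). Of the other 20 clock genes 1 (Fbxl21) passed an unadjusted p under 0.05 and 0 passed an adjusted one. Fbxl21 missed the unadjusted threshold with DESeq2 (0.069) and, in edgeR's test, without NS library 1 (0.157), WS library 1 (0.107) or WS library 2 (0.057). The replicate block, which uses the pairing of library numbers, changed no call of a clock gene; over all genes it gave 6 calls in place of 4. Under the block Arntl had a log2 fold change of -0.19 (unadjusted p = 0.068, adjusted p = 0.9999, edgeR's quasi-likelihood test), and with the GC and length trend removed as well -0.19 (unadjusted p = 0.0093, adjusted p = 0.925), the lowest unadjusted p of a member in any setting. Nr1d2 turned to -0.0014 under the block. The sign of a log2 fold change near 0 also turned with the GC and length trend removed, without and with the block, for Per2 (-0.018 and -0.018), Cry2 (-0.012 and -0.014), Csnk1d (-0.025 and -0.026), Timeless (-0.0042 and -0.0090) and Usp2 (-0.026 and -0.023); the cause was not tested. Removing the trend without the block took the log2 fold change of Dbp from 0.14 to 0.064, Per1 from 0.075 to 0.010 and Nr1d1 from 0.070 to 0.013. In the same setting Cry1 went from -0.13 to -0.16 and Nr1d2 from 0.012 to 0.027. It moved the split of all genes at an unadjusted p under 0.05 from 119 higher and 45 lower to 148 higher and 197 lower. The calls over all genes also depended on single libraries, with 0 without NS library 2 or NS library 3 and 6 without WS library 1. Without WS library 3 that split was 319 higher and 291 lower. With the 10 members only the arm difference was 0.086 in WS library 2. Its means were then -0.10 in NS and 0.10 in WS, a WS minus NS of 0.21 in place of 0.13, and the groups still overlapped (0.12 in NS library 3). With the trend removed the arm difference was -0.026 in WS library 1. Of 70 member values under these settings 65 kept their direction, and of 60 with 1 library left out 48 did.

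With 1 library left out in turn, log2 fold changes ranged from -0.051 to 0.16 for Per1, -0.020 to 0.077 for Per2, -0.14 to 0.12 for Per3, -0.056 to 0.099 for Cry2, -0.019 to 0.15 for Nr1d1 and -0.13 to 0.13 for Nr1d2. Cry1 (-0.15 to -0.12), Arntl (-0.27 to -0.11), Clock (-0.26 to -0.0016) and Dbp (0.07 to 0.23) kept their direction. Of the other clock genes the range crossed 0 for Npas2 (-0.0051 to 0.11), Rora (-0.13 to 0.10), Bhlhe40 (-0.049 to 0.091), Tef (-0.037 to 0.016), Ciart (-0.22 to 0.15), Csnk1d (-0.051 to 0.072), Timeless (-0.15 to 0.18), Nono (-0.039 to 0.011) and Usp2 (-0.025 to 0.076). Csnk1e (0.0078 to 0.14) and Rorb (0.072 to 0.16) stayed positive but varied in size. With 1 library left out, edgeR's test gave some members an unadjusted p under 0.05. These were Clock without WS library 3 (0.019), Arntl without WS library 1 (0.044) and Dbp without NS library 3 (0.037). Over all genes, 319 were higher and 291 lower at that threshold without WS library 3 (of 13847). The counts were 315 and 114 without WS library 1 (of 13868), and 125 and 65 without NS library 3 (of 13840).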
